A study of Mus musculus with 6 samples.

Results

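The proteasome is the barrel-shaped protease that breaks down proteins tagged with ubiquitin. Its genes were taken as every row of the authors' deposited table whose symbol begins with Psma, Psmb, Psmc, Psmd or Psme followed by a number and at most 1 letter, which gave 41 of 16426 genes. The 41 comprised 8 alpha ring genes, 4 structural beta genes, 3 constitutive catalytic beta genes, 3 immunoproteasome beta genes, 17 genes of the regulatory cap, 2 assembly chaperones and 4 activators. Psmb11, Psmd10 and Psme2b had no row under these symbols. All 41 were among the 14114 genes with an adjusted p under 1 in that table, and these 14114 are called the tested genes here.

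Bulk RNA sequencing was done on the livers of 6 male C57/BL mice. By the labels, 3 were normal controls on saline, and the other 3 were exposed for 10 weeks to 20% CCl4 (carbon tetrachloride), a liver toxicant used to produce fibrosis. A group that also received didymin is named in the design and was not analysed here. Age is not among the labels, and nothing in them says how each library was drawn from the animals, so p-values measure the spread between libraries only. The table compares a set of 3 libraries headed ly_A with a set of 3 headed ly_B, and the sets are called by these headers here. Neither header matches a sample label, so it is not known which set, if either, is the CCl4 group, and no difference below is read as an effect of CCl4. For the same reason the 18 columns of single libraries were left out, and levels, depth, spread between libraries and overlap of the sets are not given. A positive log2 fold change means higher in ly_A, read from the comparison's name, which puts ly_A before ly_B, and from the first lines of the table by eye. A gene was called when the authors' adjusted p was under 0.05.

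In the core particle, alpha subunits form the outer rings that gate the barrel and beta subunits form the inner rings, where a trio of beta subunits on each ring cuts peptide bonds. The regulatory cap recognises, unfolds and feeds in ubiquitin-tagged proteins through a base with an ATPase ring and a lid that removes ubiquitin. Interferon-gamma induces replacement beta subunits that give the immunoproteasome, together with the PA28 alpha and beta activator, and their peptide products are loaded onto MHC class I molecules. Lymphoid and myeloid cells carry much immunoproteasome, while hepatocytes at rest carry mostly the constitutive form.

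Promoter sequences are shown for the 5 genes that were at least 2-fold higher in ly_A, Psmb8, Psmb9, Psmb10, Psme1 and Psme2. Each run is the 250 bases before the RefSeq start site on GRCm38.p6, 5′ to 3′ on the strand of the gene. Capitals mark any match to the 3 motifs searched for an antioxidant response element core (TGANNNNGC), an interferon-stimulated response element core (GAAA given again after a gap of any dinucleotide) or a gamma-activated site (TTCNNNGAA), on either strand. For Psme2, which has more than 1 start site in RefSeq, the outermost is shown.
Psmb8, chr17:34197945-34198194, plus strand: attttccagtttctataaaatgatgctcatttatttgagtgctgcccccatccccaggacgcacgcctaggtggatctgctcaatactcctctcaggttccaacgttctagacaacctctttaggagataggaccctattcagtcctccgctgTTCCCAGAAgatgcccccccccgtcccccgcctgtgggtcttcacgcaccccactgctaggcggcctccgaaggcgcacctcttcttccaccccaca
Psmb9, chr17:34187331-34187580, minus strand: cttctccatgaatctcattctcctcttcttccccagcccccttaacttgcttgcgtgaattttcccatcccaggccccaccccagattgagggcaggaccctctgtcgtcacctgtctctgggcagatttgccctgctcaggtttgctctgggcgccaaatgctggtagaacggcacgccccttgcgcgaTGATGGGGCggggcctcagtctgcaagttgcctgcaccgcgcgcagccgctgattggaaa
Psmb10, chr8:105938393-105938642, minus strand: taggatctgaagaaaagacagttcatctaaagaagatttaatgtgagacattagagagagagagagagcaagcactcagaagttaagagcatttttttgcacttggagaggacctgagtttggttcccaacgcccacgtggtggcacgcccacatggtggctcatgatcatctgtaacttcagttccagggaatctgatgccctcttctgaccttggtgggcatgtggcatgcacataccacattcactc
Psme1, chr14:55578244-55578493, plus strand: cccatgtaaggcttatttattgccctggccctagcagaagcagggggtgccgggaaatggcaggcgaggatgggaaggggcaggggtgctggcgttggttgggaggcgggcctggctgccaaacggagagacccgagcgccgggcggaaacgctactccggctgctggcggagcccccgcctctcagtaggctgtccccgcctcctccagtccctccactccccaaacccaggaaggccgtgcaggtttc
Psme2, chr14:55591102-55591351, minus strand: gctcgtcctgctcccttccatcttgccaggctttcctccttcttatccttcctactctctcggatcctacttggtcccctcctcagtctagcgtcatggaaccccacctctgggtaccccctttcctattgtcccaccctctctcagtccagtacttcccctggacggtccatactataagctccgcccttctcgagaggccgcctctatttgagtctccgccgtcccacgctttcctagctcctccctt

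Within these 250 bases, Psmb8 held a gamma-activated site match whose first base lies 97 bases before the start, and Psmb9 an antioxidant core match 60 bases before it. The shown stretches of Psmb10, Psme1 and Psme2 held none of the 3. Over the full windows of 300 bases, which run 50 bases past the start, RefSeq held 34 of the 41 members (all but Psma8, Psmb1, Psmb2, Psmb7, Psmc3, Psmd3 and Psmd7). The antioxidant core stood in 20 of these 34 (58.8%) and in 45% of all 27025 genes with a window. The interferon-stimulated core stood in 4 of 34 (11.8%; Psmb3, Psmd4, Psmd9 and Psme1) and in 3.99% of all genes. The gamma-activated site stood in 2 of 34 (5.88%; Psmb8 and Psmd2) and in 9.55% of all genes. The NF-Y box CCAAT, also searched on both strands, stood in 12 of 34 (35.3%) and in 41.1% of all genes. Of all genes with a window, 12640 had a row in the authors' deposited table. Their shares were 47.4%, 3.83%, 8.44% and 42.1%, in the order given. The motif matches are letters found in a window and are not shown to be bound sites.

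The genes of the immunoproteasome and of PA28 alpha and beta were all higher in ly_A, while most called genes of the cap, and both remaining activators, were higher in ly_B. Over all 41 members, 7 (17.1%) were called higher in ly_A and 11 (26.8%) higher in ly_B by the authors' deposited table. The background over all tested genes was 18.1% called higher in ly_A and 17.7% higher in ly_B. With a difference of at least 2-fold as well, 5 members (12.2%) were higher in ly_A and 4 (9.76%) in ly_B, against 10.9% and 7.85% of all tested genes. The 5 were Psmb8, Psmb9, Psmb10, Psme1 and Psme2, and the 4 were Psmd1, Psmd8, Psmd5 and Psme3. Without the 2-fold condition, the members' share thus lay near the background for ly_A and above it for ly_B. By the authors' deposited table, calls in both directions stood within the activators (2 and 2), the constitutive catalytic genes (1 and 1) and the base non-ATPases (1 in ly_A and 2 in ly_B). The median log2 fold change was -0.14 over the members and 0.07 over all tested genes.

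**Figure D1:**
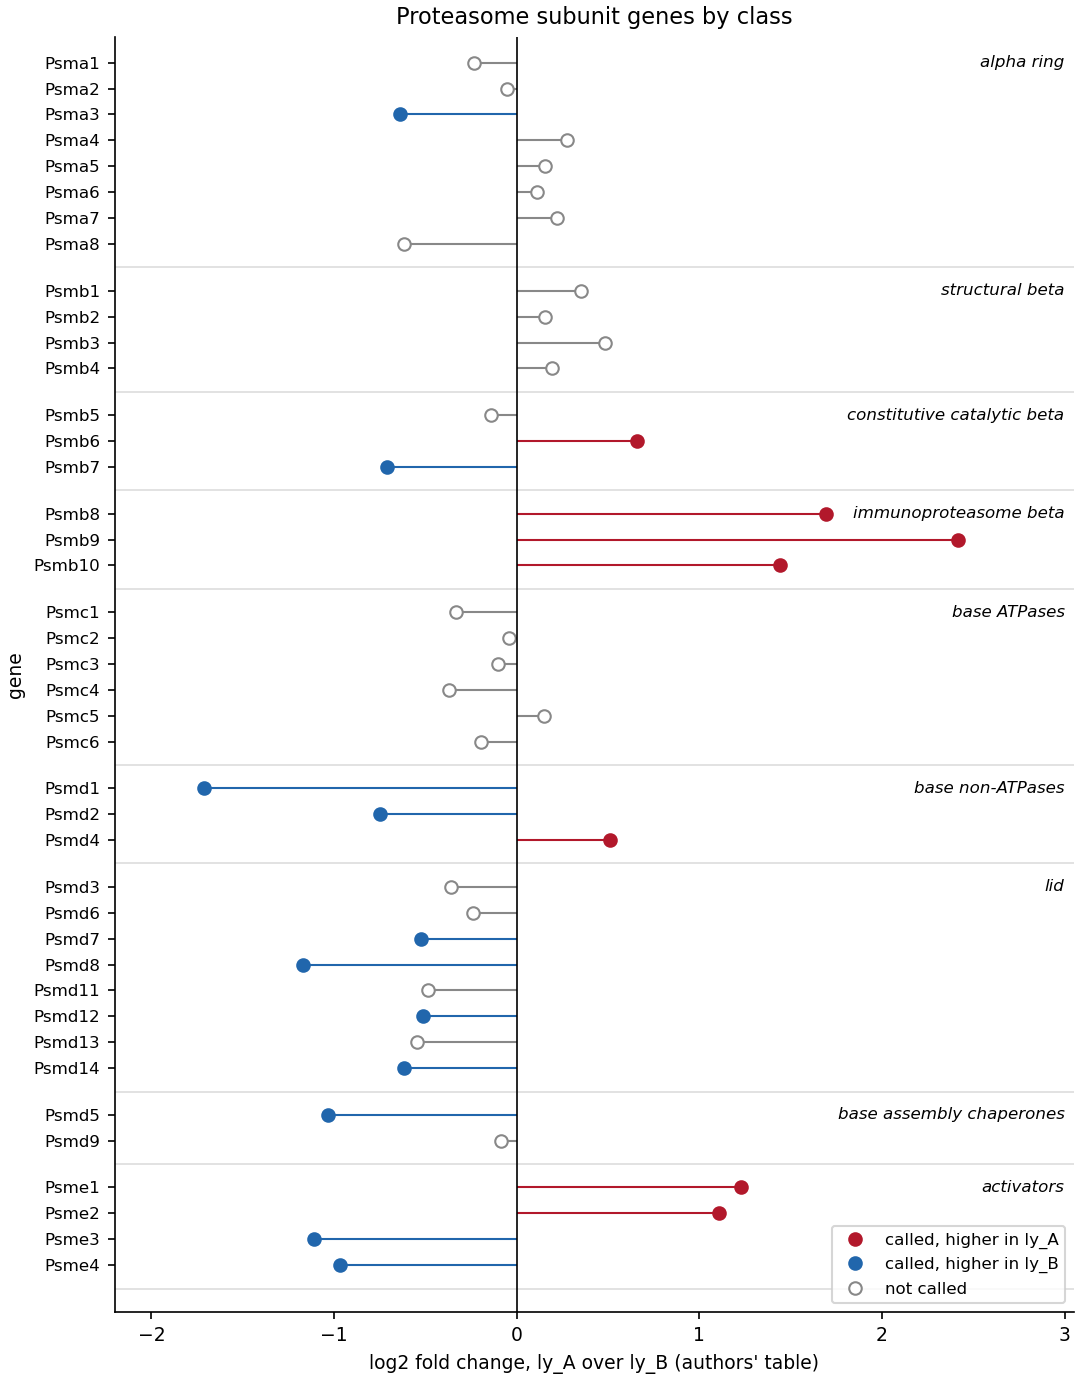
Log2 fold change of ly_A over ly_B from the authors' deposited table (x axis) for each of the 41 member genes (y axis), grouped by class. Filled red points were called higher in ly_A, filled blue points higher in ly_B and open grey points were not called; each line runs from 0 to the value. All 3 immunoproteasome genes lie right of 1, and all 8 Psmd genes of the lid lie left of 0.

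The 3 catalytic subunits of the immunoproteasome had the largest differences towards ly_A of all 41 members. Psmb9, the replacement subunit LMP2 at the caspase-like site, was 5.33-fold higher in ly_A by the authors' deposited table (log2 2.41, adjusted p = 3.46e-10) and ranked 539 of 14114 tested genes by log2 fold change. Psmb8, LMP7 at the chymotrypsin-like site, was 3.23-fold higher in ly_A by the authors' deposited table (log2 1.69, adjusted p = 3.93e-09). Psmb10, MECL-1 at the trypsin-like site, was 2.71-fold higher in ly_A by the authors' deposited table (log2 1.44, adjusted p = 1.9e-08). By log2 fold change, Psmb8 ranked 1042 and Psmb10 ranked 1449 of the 14114.

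The constitutive subunits that hold the same catalytic positions did not move together. Psmb6, the constitutive caspase-like subunit, was called higher in ly_A at a log2 value of 0.66 (adjusted p = 0.0051) by the authors' deposited table. Psmb7, the trypsin-like subunit, was called higher in ly_B at -0.71 (adjusted p = 0.0477) by the authors' deposited table, and this call ended under a threshold of 0.01 and when the p was adjusted over all rows. Psmb5, the chymotrypsin-like subunit, was not called, at -0.14 (adjusted p = 0.529) by the authors' deposited table. At each position the inducible gene exceeded its constitutive counterpart in log2 fold change, by 1.83 for Psmb8 over Psmb5, 1.76 for Psmb9 over Psmb6 and 2.15 for Psmb10 over Psmb7. As folds, the ratio of inducible to constitutive transcript was 3.56, 3.38 and 4.44 times as large in ly_A as in ly_B, computed from the authors' deposited table. These differences between genes carry no test, since the columns of single libraries were left out.

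**Figure D2:**
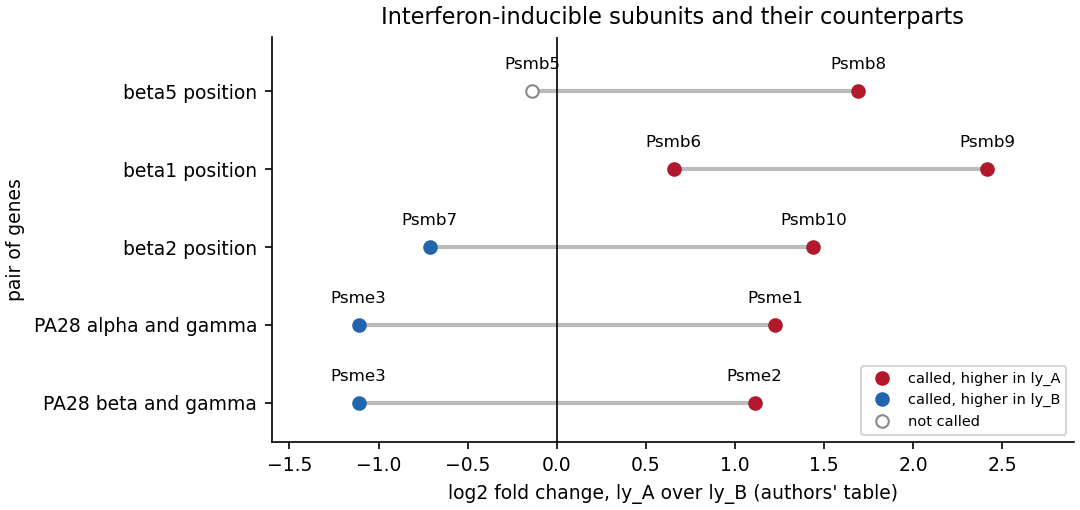
Log2 fold change of ly_A over ly_B from the authors' deposited table (x axis) for pairs of interferon-inducible genes and their counterparts (y axis). Filled points were called (red higher in ly_A, blue higher in ly_B), the open point was not, and grey bars join a pair; the inducible gene lies to the right in all 5 pairs, with Psme3 shown in 2 of them.

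The activators, which dock on the core in place of the cap, were called in opposite directions. Psme1, PA28 alpha, was 2.34-fold higher in ly_A by the authors' deposited table (log2 1.23, adjusted p = 1.22e-07). Psme2, PA28 beta, which forms a ring with PA28 alpha in the cytosol, was 2.16-fold higher in ly_A by the authors' deposited table (log2 1.11, adjusted p = 0.000261). Psme3, PA28 gamma, the nuclear relative that forms rings of its own, was 2.16-fold higher in ly_B by the authors' deposited table (log2 -1.11, adjusted p = 8.09e-06). Psme4, the nuclear activator PA200, was 1.95-fold higher in ly_B by the authors' deposited table (log2 -0.97, adjusted p = 0.000848). In log2 fold change, Psme1 exceeded Psme3 by 2.34 and Psme2 exceeded it by 2.22, again without a test of the difference. Psme2 has a closely related copy, Psme2b, so its single value is uncertain. In RefSeq (GRCm38.p6) the gene span of Psme1 overlaps Emc9, called higher in ly_A at 1.54 (adjusted p = 8.13e-08) by the authors' deposited table, and whether the counting used strand is not given in the sources used here.

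Several of the inducible genes are neighbours on the chromosome. In RefSeq (GRCm38.p6), Psmb9 and Tap1, a subunit of the transporter that carries peptides into the endoplasmic reticulum, lie next to each other, 226 bases apart, and are read in opposite directions, so the stretch shown for Psmb9 also holds the start of Tap1. Psmb8 lies between Tap1 and Tap2, the other subunit of that transporter. Tap1 was called higher in ly_A at 0.96 (adjusted p = 0.000596) and Tap2 at 0.999 (adjusted p = 0.000267) by the authors' deposited table. Psmb9 at 2.41 and Psmb8 at 1.69 thus had larger log2 values than the transporter genes between and beside them by the authors' deposited table. Psme1 and Psme2 lie on either side of Emc9. The next protein-coding gene on the other side of Psme1 is Fitm1, 1542 bases away. Fitm1 was called higher in ly_A at 6.24 (adjusted p = 1.72e-27) by the authors' deposited table, a larger log2 value than that of Psme1. Psmb10 stands apart from these, between Ctrl and Lcat, neither of which was called by the authors' deposited table (1.03, adjusted p = 0.366, and 0.38, adjusted p = 0.0698).

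The regulatory cap leaned the other way. Of its 17 genes, 6 (35.3%) were called higher in ly_B and 1 (5.88%) higher in ly_A by the authors' deposited table, against 17.7% and 18.1% of all tested genes. A negative log2 fold change stood in 15 of 17 (88.2%), against 46.9% of all tested genes. The median was -0.37. The counts fell unevenly over the base and the lid.

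In the lid, all 8 Psmd genes had negative values by the authors' deposited table, from -1.17 to -0.24, and 4 of them were called, with a median of -0.52. Sem1, a lid subunit that the symbol rule does not take, went the other way and was called higher in ly_A at 0.61 (adjusted p = 0.0158) by the authors' deposited table. Psmd8 (Rpn12), a small lid subunit, was 2.25-fold higher in ly_B by the authors' deposited table (log2 -1.17, adjusted p = 2.06e-06). Psmd14 (Rpn11), the metalloprotease that removes ubiquitin chains from substrates, was called at -0.62 (adjusted p = 0.00888) by the authors' deposited table. Psmd7 (Rpn8), which pairs with Psmd14, was called at -0.53 (adjusted p = 0.0434), and Psmd12 (Rpn5) at -0.51 (adjusted p = 0.0325), by the authors' deposited table. The calls of Psmd7 and Psmd12 ended at a threshold of 0.01, and that of Psmd7 also when the p was adjusted over all rows. Psmd13 at -0.55, Psmd11 at -0.49, Psmd3 at -0.36 and Psmd6 at -0.24 were not called by the authors' deposited table (smallest adjusted p = 0.0651).

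In the base, the members Psmd1, Psmd2 and Psmd4 were called and the ATPases were not, and the further non-ATPase subunit Adrm1, which the symbol rule does not take, was not called either by the authors' deposited table. Psmd1 (Rpn2), a large scaffold subunit, was 3.27-fold higher in ly_B by the authors' deposited table (log2 -1.71, adjusted p = 1.74e-07). Among the 41 members this was the largest difference towards ly_B, at rank 472 of 14114 in that direction. Its gene span overlaps Htr2b in RefSeq (GRCm38.p6), which stood at -2.09 and was not called (adjusted p = 0.265) by the authors' deposited table. Psmd2 (Rpn1), the other scaffold and a docking site for ubiquitin shuttle proteins, was called at -0.75 (adjusted p = 0.00252) by the authors' deposited table. Psmd4 (Rpn10), a ubiquitin receptor between base and lid, was the only one of the 17 members in the cap called higher in ly_A, at 0.51 (adjusted p = 0.00368) by the authors' deposited table. The 6 ATPases of the unfolding ring, Psmc1 to Psmc6, gave 0 calls by the authors' deposited table (1 gene, Psmc4, at an unadjusted p under 0.05), with log2 values from -0.37 for Psmc4 (adjusted p = 0.0615) to 0.15 for Psmc5. Of the chaperones that assemble the base, Psmd5 was 2.05-fold higher in ly_B by the authors' deposited table (log2 -1.03, adjusted p = 0.000182), and Psmd9 was not called, at -0.09 (adjusted p = 0.813).

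**Figure D3:**
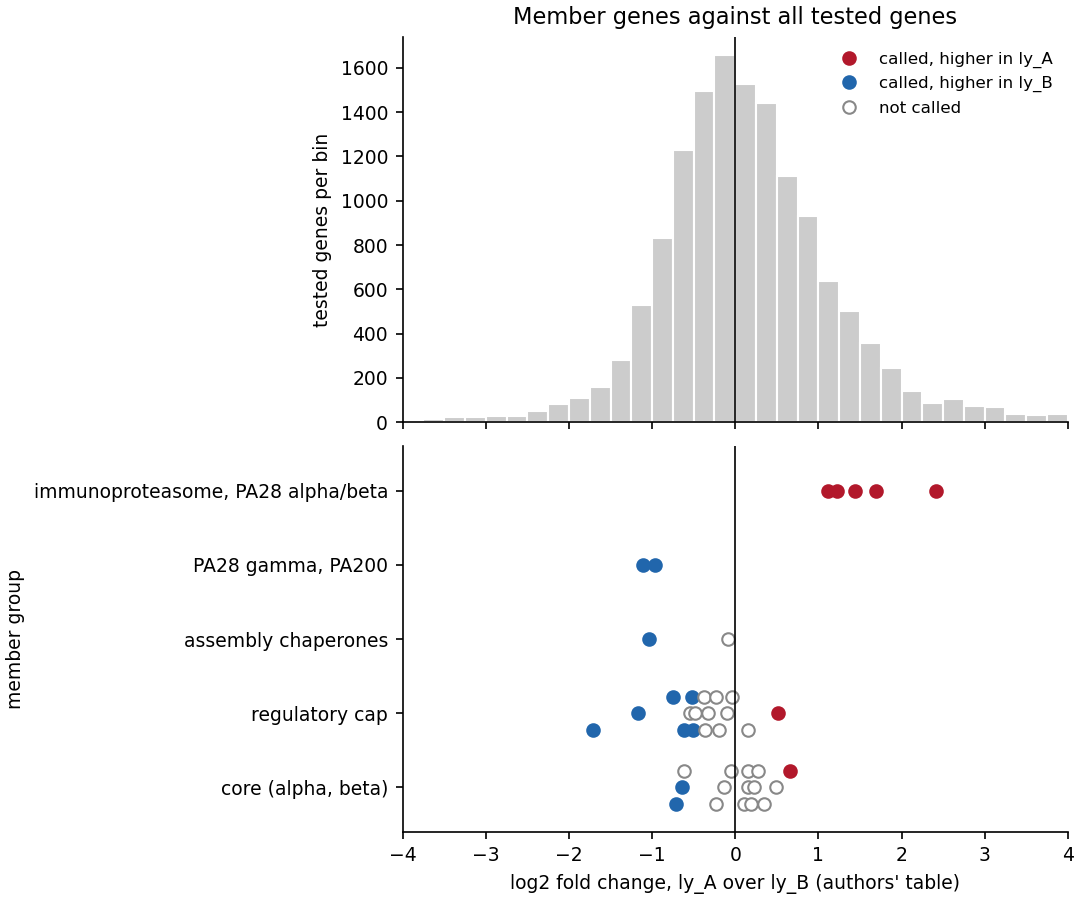
The upper panel counts all tested genes by log2 fold change of ly_A over ly_B from the authors' deposited table, in bins of 0.25; 227 tested genes lie beyond the plotted limits of 4 in either direction. The lower panel places each member on the same axis by group, red where called higher in ly_A, blue where called higher in ly_B and open where not called, with small vertical offsets for legibility only; core genes cluster near 0, and the immunoproteasome and PA28 alpha and beta genes all lie above 1.

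Most genes of the constitutive core were not called. Of 15 alpha and constitutive beta genes, 1 (6.67%) was called higher in ly_A and 2 (13.3%) higher in ly_B by the authors' deposited table, with a median of 0.15. Over all tested genes these shares were 18.1% and 17.7%. In the alpha ring, Psma3 was called higher in ly_B at -0.64 (adjusted p = 0.00455) by the authors' deposited table. The other alpha genes were not called by the authors' deposited table and stood at -0.23 for Psma1, -0.05 for Psma2, 0.28 for Psma4, 0.15 for Psma5, 0.11 for Psma6 and 0.22 for Psma7. Psma8, the alpha subunit of the testis proteasome, was listed at -0.62 and was not called (adjusted p = 0.542) by the authors' deposited table. The structural beta genes Psmb1 (0.35), Psmb2 (0.15), Psmb3 (0.48) and Psmb4 (0.19) all had positive log2 values by the authors' deposited table, with 0 calls (1 gene, Psmb3, at an unadjusted p under 0.05; its adjusted p was 0.08386).

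Genes that build or inhibit the core particle were mostly not called. Of 6 such genes, 1 (16.7%) was called higher in ly_A and 0 in ly_B by the authors' deposited table, against 18.1% and 17.7% of all tested genes. The called gene was Pomp, the maturation protein that helps the beta rings form, at 0.45 (adjusted p = 0.0461) by the authors' deposited table. The inhibitor Psmf1 at 0.39 (adjusted p = 0.0852) and the chaperone Psmg3 at 0.73 (adjusted p = 0.0569) were not called by the authors' deposited table. Of 9 other subunits and partners of the cap, 1 (11.1%) was called higher in ly_A and 3 (33.3%) higher in ly_B by the authors' deposited table. The gene higher in ly_A was Sem1, the small lid subunit given above. Zfand2a, an arsenite-inducible zinc finger protein that binds the cap, at -1.98 (adjusted p = 1.65e-07), Ube3c, a ubiquitin ligase on the cap, at -1.35 (adjusted p = 4.69e-06), and Txnl1, a thioredoxin of the cap, at -0.65 (adjusted p = 0.000522) were higher in ly_B by the authors' deposited table. The ubiquitin receptor Adrm1 was not called, at 0.03 (adjusted p = 0.927) by the authors' deposited table.

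Where genes that deliver substrates were called, they were higher in ly_B. Of 16 genes for ubiquitin, activating and conjugating enzymes and shuttle proteins, 8 (50%) were called higher in ly_B by the authors' deposited table, against 17.7% of all tested genes. Uba6, the second ubiquitin-activating enzyme, stood at -1.46 (adjusted p = 5.5e-06), the shuttle Ubqln2 at -0.92 (adjusted p = 0.0181) and the shuttle Ubqln1 at -0.91 (adjusted p = 0.000129) by the authors' deposited table. Sqstm1, p62, which links ubiquitin to autophagy, stood at -0.81 (adjusted p = 0.0227) by the authors' deposited table. Of 11 genes listed for the control of proteasome gene transcription, 5 (45.5%) were called higher in ly_B and 0 in ly_A by the authors' deposited table, and 0 further genes reached an unadjusted p under 0.05 towards ly_A. Over all tested genes, 17.7% were called higher in ly_B and 18.1% higher in ly_A. Of the 5, 4 are known for the extraction and processing of proteins at the endoplasmic reticulum, and the proteins so processed include the regulator NRF1. The fifth called gene, Nrip1, a nuclear receptor corepressor, stood at -0.57 by the authors' deposited table. Syvn1, the ubiquitin ligase HRD1 of the endoplasmic reticulum, stood at -1.32 (adjusted p = 3.12e-06), Nploc4, a cofactor of the segregase Vcp, at -1.07 (adjusted p = 0.00155), Vcp itself at -0.64 (adjusted p = 0.00132) and the glycanase Ngly1 at -0.50 (adjusted p = 0.0241) by the authors' deposited table. The genes for the regulators themselves were not called by the authors' deposited table: Nfe2l1, which encodes NRF1, at 0.26 (adjusted p = 0.354), and Nfe2l2, which encodes NRF2, at -0.36 (adjusted p = 0.168).

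Of 16 genes of MHC class I antigen processing, 8 (50%) were called higher in ly_A and 3 (18.8%) higher in ly_B by the authors' deposited table, against 18.1% and 17.7% of all tested genes, so the share higher in ly_B was that of the background. The 8 higher in ly_A were B2m, the light chain of class I molecules, at 1.20 (adjusted p = 4.12e-07), the regulators Irf1 at 1.03 (adjusted p = 0.00364), Nlrc5 at 0.93 and Irf8 at 0.81, the transporter genes Tap1 and Tap2 given above, and the heavy chains H2-K1 at 0.95 and H2-D1 at 0.69, by the authors' deposited table. H2 genes are a family of similar copies, and their single values are uncertain. The 3 higher in ly_B were the endoplasmic reticulum chaperones Canx at -0.99, Calr at -0.96 and Pdia3 at -0.94 by the authors' deposited table (largest adjusted p = 0.000288). Among 12 cathepsins, calpains and other genes of breakdown outside the proteasome, 1 was higher in ly_A and 2 higher in ly_B by the authors' deposited table: Tfeb, a regulator of lysosome genes, at 0.89 (adjusted p = 0.000892), tripeptidyl peptidase Tpp2 at -0.81 (adjusted p = 3.24e-05) and the calpain Capn2 at -0.80 (adjusted p = 0.000364).

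**Figure D4:**
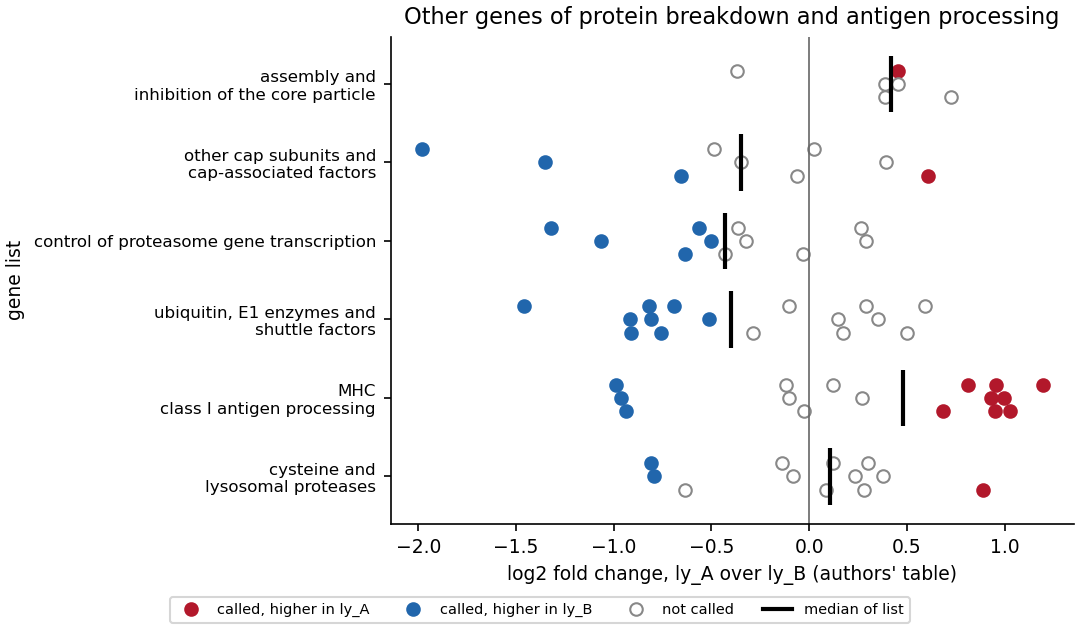
Log2 fold change of ly_A over ly_B from the authors' deposited table (x axis) for the tested genes of 6 lists (y axis), with vertical offsets for legibility only. Filled points were called (red higher in ly_A, blue higher in ly_B), open points were not, and the black bar is the median of the list, which is 0.48 for MHC class I antigen processing and -0.40 for ubiquitin, activating enzymes and shuttle factors.

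Leukocyte markers that were called were mostly higher in ly_A, as were the immunoproteasome genes. Of 41 tested markers in 6 leukocyte lists, 17 (41.5%) were called higher in ly_A and 2 (4.88%) higher in ly_B by the authors' deposited table, with a median of 1.17. The shares over all tested genes were 18.1% and 17.7%. Of 10 T and NK cell markers, 5 were higher in ly_A and 0 in ly_B by the authors' deposited table, with Gzmb at 2.69, Gzma at 2.62, Cd4 at 2.43, Nkg7 at 1.99 and Cd3e at 1.80. Of 4 B cell markers, 3 were higher in ly_A by the authors' deposited table, among them Cd79a at 1.62 and Cd79b at 1.47. Of 5 dendritic cell markers, 2 were higher in ly_A by the authors' deposited table: Xcr1 at 3.003 and Cd209a at 2.89. Itgax was negative at -0.76 and was not called. Of 11 macrophage and monocyte markers, 4 were higher in ly_A by the authors' deposited table, Timd4 at 3.04, Clec4f at 2.63, Vsig4 at 1.76 and Csf1r at 1.10, and 2 were higher in ly_B, Gpnmb at -4.93 and Itgam at -2.14. In sign this list was mixed, with 6 positive and 5 negative values. Ccr2 at -0.92, Spp1 at -0.27 and Cd68 at -0.20 were negative and not called by the authors' deposited table. Of 8 markers shared by all leukocytes, 3 were higher in ly_A by the authors' deposited table: Cd52 at 1.18, Rac2 at 1.04 and Ptprc at 0.86. The other 5 were not called, 4 of the 8 had negative values (Arhgdib -0.56, Lcp1 -0.35, Laptm5 -0.07 and Coro1a -0.06), and the median of this list was 0.05 by the authors' deposited table. The 3 tested neutrophil markers gave 0 calls in either direction by the authors' deposited table, with 0 at an unadjusted p under 0.05. Among endothelial markers, 3 of 4 (75%, against 18.1% of all tested genes) were higher in ly_A by the authors' deposited table, Stab2 at 1.77, Pecam1 at 1.19 and Cdh5 at 1.10. Lyve1 stood at -0.08 and was not called. The part of these cell types in the values of Psmb8, Psmb9, Psmb10, Psme1 and Psme2 was not tested. In a bulk sample, a different number of cells of a type and a different amount of RNA per cell cannot be told apart.

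Hepatocyte markers were called towards ly_A or not called. Of 8 tested, 3 (37.5%) were higher in ly_A and 0 in ly_B by the authors' deposited table, against 18.1% and 17.7% of all tested genes. Among the 3 were Apoa1 at 1.22 and Ttr at 1.07, and albumin, Alb, stood at 0.19 and was not called. Cps1 at -0.52 and Hnf4a at -0.05 had negative values and were not called by the authors' deposited table. Fibroblast and bile duct markers gave 1 call each, both higher in ly_B by the authors' deposited table: Pdgfrb at -0.67 of 5 tested and Sox9 at -1.68 of 4 tested. Both lists were mixed in sign. Acta2 at 1.22 and Dcn at 0.36 among fibroblast markers, and Krt19 at 0.98 among bile duct markers, were positive and not called. The part of these cell types in the values of the cap genes was not tested either.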

How the data were processed

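Livers of 6 male mice were profiled by RNA sequencing. Per the labels' protocols, Trizol was used to extract the RNA and a NEBNext kit to prepare the libraries. Per the submitters' processing notes, the authors used DESeq2 (no version given) and mouse build mm9; aligner, counter, annotation and strand setting are not stated there. Per the file headers, the deposited table holds the authors' log2 fold change, p-value and adjusted p-value for ly_A against ly_B. The 18 columns of single libraries match no sample label and were not used, so depth per sample is not given and no test was fitted here.

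An adjusted p of exactly 1 stood in 2312 rows. In the other 14114, the deposited adjusted p-value matched a Benjamini-Hochberg adjustment over those rows to a relative difference of at most 9.47e-13, so they were taken as tested. Calls used the deposited adjusted p under 0.05; lists are described by counts and medians. The adjustment and call rule were tested on simulated data. Alternatives were a threshold of 0.01, a 2-fold difference as well, adjustment over all rows, centring on the median of tested genes, and leaving out Psme2 or the base chaperones Psmd5 and Psmd9.

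Members and lists were chosen with earlier results of these data known. The text names every member and, of each pathway list, fixed genes and the 3 called genes with the largest difference, or the 2 with the smallest p where fewer than 2 were called. In the antigen processing list all called genes are named, and in the transcription control list too, a choice made after their values were seen; some genes that the rule takes are not reported here. RefSeq promoters and neighbours belong to GRCm38.p6, another build than mm9, and were matched by symbol (all 41 members for neighbours, 34 for promoters). Python 3.11.15 with pandas 2.3.3, numpy 2.4.6 and matplotlib 3.10.9 was used.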

Additional observations from a re-analysis of the deposited data

How the results depend on the processing

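The 5 calls of Psmb8, Psmb9, Psmb10, Psme1 and Psme2, and those of Psmd1, Psmd8, Psmd5 and Psme3, held under a threshold of 0.01, with a 2-fold difference as well, with adjustment over all rows and after centring. Of the 41 members, 38 kept their side of the threshold at 0.01, 32 with a 2-fold difference, 39 with adjustment over all rows and 41 after centring, and every change was a lost call. At a threshold of 0.01, 8 members (19.5%) were called higher in ly_B in place of 11. Of the 8, 2 stood in the lid and 1 in the constitutive core, with 0 among constitutive catalytic genes. The share of all tested genes called at 0.01 was not computed, so no count at this threshold is set beside a background. With a 2-fold difference as well, calls higher in ly_B numbered 4 over all members, 2 in the cap, 1 in the lid, 1 among base non-ATPases, 1 among activators and 0 in the alpha ring, the constitutive catalytic genes and the core; calls higher in ly_A numbered 0 in the core, its catalytic genes, the cap and the base non-ATPases. With adjustment over all rows, calls higher in ly_B numbered 0 among constitutive catalytic genes and 1 in the core. The share of all tested genes called under this adjustment was not computed either. Without Psme2, 1 activator was higher in ly_A, and the activator median turned from 0.07 to -0.97; centring turned the alpha ring median from 0.03 to -0.042. For the pathway lists at 0.01, calls higher in ly_A numbered 0 for core assembly and inhibition (0 also with adjustment over all rows) and 0 for cap partners. Calls higher in ly_B at 0.01 numbered 3 for transcription control and 5 for ubiquitin and shuttles. With a 2-fold difference, calls higher in ly_A numbered 0 of 6 for core assembly and inhibition and 0 of 9 for cap partners. Calls higher in ly_B numbered 2 of 11 for transcription control and 1 of 16 for ubiquitin and shuttles. For antigen processing, 2 of 16 were higher in ly_A and 0 in ly_B, and for the 12 other protease genes 0 and 0. Over all tested genes, 10.9% were called higher in ly_A and 7.85% higher in ly_B under this rule. The shares of 50% given above for antigen processing and for ubiquitin and shuttles thus did not hold with a 2-fold difference. Fewer calls under a stricter rule follow from its construction. No paired analysis was possible because the columns of single libraries match no sample label and the deposited comparison carries no replicate numbers; leaving out single libraries was not run for the same reason. Depth behind each gene was not examined.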
